A study of Mus musculus with 6 samples.

Results

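HIF target genes outside glycolysis are genes that cells switch on when oxygen is short and that do not belong to the glycolytic pathway itself. The 10 genes described here were given as a list of symbols (Bnip3, Bnip3l, Pdk1, P4ha1, P4ha2, Vegfa, Egln1, Egln3, Ankrd37 and Ndrg1) and were found by Ensembl identifier among the 55400 genes of the deposited table. Their mRNA was counted in 6 poly(A) libraries of motor neuron progenitors. The cells came from C57BL/6 mouse embryonic stem cells kept on mitomycin-treated fibroblast feeders, and were collected on day 4 of differentiation. The 3 control and 3 Setd5sh libraries share a wild-type genotype label, embryoid bodies of 500 cells, retinoic acid at 1 µM and the Sonic hedgehog agonist SAG at 0.5 µM from day 2, and doxycycline at 1 µg/mL for 36 h. The labels do not spell out what Setd5sh stands for or what the control cells carried, nor how many clones were used or whether replicates were separate cultures. All p-values below therefore rest on the spread among these 6 libraries, and that spread could be technical.

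As background, hypoxia-inducible factor (HIF) is a pair of proteins, an oxygen-regulated alpha subunit (Hif1a or Epas1) and a constant partner (Arnt). With enough oxygen, prolyl hydroxylases of the Egln family mark the alpha subunit, the Vhl complex binds it and it is degraded. When oxygen is short the alpha subunit stays, enters the nucleus and binds a short core sequence near its target genes, among them genes that lower the use of mitochondria, remodel collagen, call in blood vessels and, as feedback, make more of the hydroxylases. Embryoid bodies are solid aggregates, in which oxygen is known to drop towards the centre. Only mRNA was measured here, neither oxygen nor HIF protein.

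The core sequence that HIF binds is ACGTG or GCGTG, read on either strand. In the RefSeq promoter table of build GRCm38.p6, 8 of the 10 genes had an entry, and the 250 bases before the first listed start were searched. At least 1 match was found in 7 of these 8 genes, against 38.6% of all 32851 windows of the same length. At least 2 matches stood in 5 of the 8, against 16.7% of all windows. All windows include further listed starts of a gene, whereas the 8 genes were counted at their first start only. The GC content of the 8 windows ran from 50.8% for Egln3 to 86.0% for Egln1, with 72.4% for Bnip3, 69.6% for P4ha1, 70.0% for P4ha2, 64.0% for Pdk1, 67.6% for Ankrd37 and 59.2% for Vegfa. The median over all windows was 52.4%, so all but Egln3 were above it, and the part of base composition in these matches was not tested. A match is a string of letters and not a measured binding site. The windows of 5 genes are shown, 5′ to 3′ and outside annotated exons, because 4 of them hold matches and the fifth, Vegfa, holds none. Capitals mark the matches, on either strand.
Bnip3, chr7:138909520-138909756, minus strand: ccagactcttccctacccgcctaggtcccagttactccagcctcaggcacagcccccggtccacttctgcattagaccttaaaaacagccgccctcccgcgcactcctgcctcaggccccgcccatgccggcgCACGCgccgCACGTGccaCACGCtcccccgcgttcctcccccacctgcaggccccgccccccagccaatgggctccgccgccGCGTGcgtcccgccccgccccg
P4ha1, chr10:59323046-59323295, plus strand: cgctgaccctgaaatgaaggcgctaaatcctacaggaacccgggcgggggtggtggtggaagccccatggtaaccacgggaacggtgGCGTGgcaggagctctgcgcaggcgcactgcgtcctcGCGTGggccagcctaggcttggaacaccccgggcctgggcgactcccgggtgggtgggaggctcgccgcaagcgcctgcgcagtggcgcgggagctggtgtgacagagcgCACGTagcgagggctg
P4ha2, chr11:54100674-54100923, plus strand: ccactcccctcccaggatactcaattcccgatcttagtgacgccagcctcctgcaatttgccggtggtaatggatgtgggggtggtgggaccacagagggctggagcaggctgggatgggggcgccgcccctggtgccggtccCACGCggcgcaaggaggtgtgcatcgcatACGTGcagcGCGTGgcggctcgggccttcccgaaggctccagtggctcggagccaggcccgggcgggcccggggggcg
Pdk1, chr2:71872974-71873223, plus strand: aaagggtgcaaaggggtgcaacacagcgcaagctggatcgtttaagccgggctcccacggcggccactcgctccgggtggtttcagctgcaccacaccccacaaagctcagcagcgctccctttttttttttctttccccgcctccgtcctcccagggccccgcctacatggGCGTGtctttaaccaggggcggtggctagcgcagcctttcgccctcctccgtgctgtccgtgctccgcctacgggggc
Vegfa, chr17:46032378-46032627, minus strand: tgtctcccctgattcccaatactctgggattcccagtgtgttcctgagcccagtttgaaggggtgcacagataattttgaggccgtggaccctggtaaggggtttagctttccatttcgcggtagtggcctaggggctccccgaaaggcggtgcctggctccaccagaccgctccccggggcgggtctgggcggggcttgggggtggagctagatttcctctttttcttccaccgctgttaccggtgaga
Bnip3 had 5 matches, 2 of which overlap as the palindrome that begins 108 bases before the start. P4ha1 and P4ha2 had 3 each, and the nearest to the P4ha1 start began 16 bases before it. Pdk1 had 1, at 78 bases. Ankrd37 had 4, Egln1 had 2 and Egln3 had 1, at 229 bases. The absence of a match in the Vegfa window says only that these letters are not within it. The window of a second listed Vegfa start, which overlaps Vegfa exons, held 2 matches, at 218 and 211 bases before that start. The window of a second listed Pdk1 start held 0.

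All 10 genes had a lower mean level in Setd5sh than in control, and 9 of them, all but Vegfa, were lower in each of the 3 same-numbered pairs of libraries. Over the 10, the log2 fold change (Setd5sh minus control, edgeR) ran from -1.01 for Ndrg1 to -0.21 for Egln1, with a median of -0.47, against a median of -0.04 over the 12199 genes tested. A log2 fold change below 0 was found in 57.4% of all genes tested, and 12.1% of them were lower in all 3 pairs. The list was chosen with earlier results of these data known. Counts among the 10 beside shares of all genes are therefore descriptions and not a test of the list. In fits of these 12199 genes without a replicate block, none passed the threshold of 0.05 after adjustment (0.0%) in edgeR, DESeq2 or limma. An unadjusted p under 0.05 in edgeR was found for 149 (1.22%). Among the 10, the unadjusted p was under 0.05 and the gene lower for Bnip3, Bnip3l and Pdk1, against 0.607% of all genes tested. This count was 2 with RLE or upper quartile scaling, DESeq2, limma or edgeR's own filter. Bnip3l then lay just above 0.05, with an unadjusted p of 0.0516 in DESeq2. The adjusted p of each of the 10 was 0.995 in edgeR. With the replicate number as a block in the same model (the paired fit), the count with an unadjusted p under 0.05 was 5, against 1.51% of all genes, and the median log2 fold change was -0.50. Single libraries also moved the unpaired count of 3. It was 6 without Setd5sh replicate 2 (1.98% of all genes), 4 without control replicate 3 (6.26%) and 1 without control replicate 1 (1.1%). Leaving out control replicate 2 (1.27%), Setd5sh replicate 1 (0.0984%) or Setd5sh replicate 3 (0.172%) gave 0.

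The 10 genes are protein-coding and lie apart from each other on 9 chromosomes (GENCODE, build GRCm38). The mitophagy receptor genes Bnip3 and Bnip3l are at chr7:138890836-138909519 and chr14:66985239-67008877, both on the minus strand, and Pdk1 is at chr2:71873224-71903858 on the plus strand. The collagen hydroxylase genes P4ha1 and P4ha2 are at chr10:59323296-59373304 and chr11:54100095-54131665, both on the plus strand. The other 5 are on the minus strand: Egln1 at chr8:124908587-124949324, Egln3 at chr12:54178981-54203860, Vegfa at chr17:46016993-46032369, Ankrd37 at chr8:45996902-46005707 and Ndrg1 at chr15:66929318-66969640.

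Levels in the deposited FPKM, which scale counts by exonic length and column total, spanned a wide range. They were not corrected for GC content, copies or overlapping genes, so the order between genes is approximate. In control libraries Bnip3 stood highest, at 60.0 ± 6.50 FPKM (SD, n = 3), then Egln1 at 45.5 ± 7.81, Bnip3l at 40.3 ± 7.25, P4ha1 at 27.9 ± 3.78, Vegfa at 27.0 ± 8.53, Pdk1 at 14.03 ± 2.34, Egln3 at 6.16 ± 1.42, P4ha2 at 5.11 ± 1.27, Ankrd37 at 4.06 ± 0.576 and Ndrg1 at 1.87 ± 0.731 FPKM. Of the 9 neighbouring pairs in this order, 4 had overlapping control values: Egln1 and Bnip3l, P4ha1 and Vegfa, Egln3 and P4ha2, and P4ha2 and Ankrd37. All 10 genes passed the minimum of a mean of 1 FPKM over the 6 libraries, and the lowest read count behind any value was 36, for Ndrg1 in Setd5sh replicate 3.

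**Figure D1:**
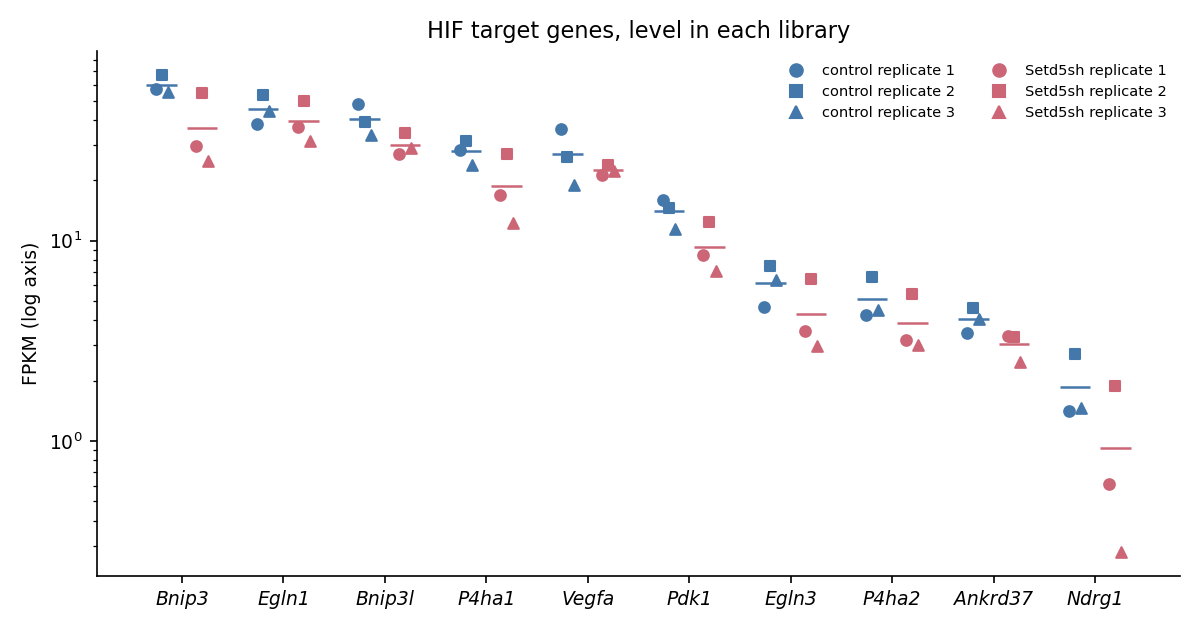
Level of each gene in FPKM (log axis) in the 3 control libraries (blue) and the 3 Setd5sh libraries (red), with marker shape giving the replicate number and bars the group means. Setd5sh replicate 2 is the highest of the 3 Setd5sh libraries for 9 of the 10 genes, and among the 10 only Bnip3 and Ankrd37 have every Setd5sh value below every control value.

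The genes that act on mitochondria were Bnip3, Bnip3l and Pdk1. Bnip3 encodes a protein of the outer mitochondrial membrane that recruits the autophagy machinery, so that mitochondria are removed. The 3 control libraries, in the order of their numbers here and below, read 57.0, 67.5 and 55.6 FPKM, and the 3 Setd5sh libraries read 29.8, 54.4 and 24.9 FPKM. The groups did not overlap, but Setd5sh replicate 2 lay just under the lowest control library, whereas Setd5sh replicates 1 and 3 were far below it. Bnip3 had a log2 fold change of -0.73 (SE 0.28; unadjusted edgeR p of 0.0296). Permuting the 6 FPKM values exactly, two-sided, gave p = 0.1, the smallest that 3 against 3 allows. Non-overlap in this direction was found in 2 of the 10 genes, Bnip3 and Ankrd37, and in 2.14% of all genes tested. The log2 fold change of Bnip3 was -1.10 without Setd5sh replicate 2 and -0.52 without Setd5sh replicate 3. Bnip3 has near-identical annotated copies. The longest match, AC160336.1, is 98.3% identical over 858 bases and held 8 reads over the 6 libraries, against 16709 for Bnip3. The antisense gene Gm45507 shares 504 exonic bases with Bnip3 and held 0 reads. How the authors' counting treated reads that fit both is uncertain.

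Bnip3l, also known as Nix, is the paralog of Bnip3 with the same role in mitophagy. Its control values of 48.1, 39.2 and 33.7 FPKM compare with Setd5sh values of 27.1, 34.4 and 29.0 FPKM. The groups overlapped by 1 library, since Setd5sh replicate 2 was above control replicate 3. The difference was -0.44 on the log2 scale (SE 0.185; unadjusted edgeR p of 0.0468), and it was -0.25 without control replicate 1, the highest library. An annotated pseudogene, Bnip3l-ps, is 99.2% identical to Bnip3l over 663 bases and held 1320 reads over the 6 libraries against 20675 for Bnip3l, so how the authors' counting split reads between them is uncertain.

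Pdk1 encodes pyruvate dehydrogenase kinase, which switches off the enzyme complex that feeds pyruvate into the mitochondrial citric acid cycle. Its level was 16.0, 14.6 and 11.5 FPKM in the control libraries, against 8.45, 12.5 and 7.03 FPKM in the Setd5sh libraries. Here too only Setd5sh replicate 2 reached into the control range, above control replicate 3. This is a log2 fold change of -0.60 (SE 0.24; unadjusted edgeR p of 0.0355). By pair, the log2 difference was -0.96 in pair 1, -0.20 in pair 2 and -0.72 in pair 3.

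Other genes of the same machineries were counted beside these 3. Of 16 tested mitophagy genes, 8 were below 0 and 8 above, with a median log2 fold change of -0.01 (0.01 with RLE or upper quartile scaling) and 0 at an unadjusted p under 0.05 in edgeR. Among the most abundant, the inner membrane receptor Phb2 had 0.19 (SE 0.20) and the autophagosome protein Gabarap 0.07 (SE 0.20) on the log2 scale. Of 10 tested genes of the pyruvate dehydrogenase complex, its other kinases and phosphatases and the pyruvate carrier, 8 were below 0, with a median of -0.14 (0.02 without control replicate 1) and 0 at an unadjusted p under 0.05. Among these the kinase Pdk3 stood at a log2 fold change of -0.15 (SE 0.18) and the catalytic subunit Pdha1 at -0.15 (SE 0.23). These shares stand beside 57.4% below 0 over all genes tested.

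P4ha1 and P4ha2 encode the catalytic subunits of collagen prolyl 4-hydroxylase, which makes collagen able to fold into a stable triple helix. For P4ha1 the control libraries held 28.3, 31.5 and 24.0 FPKM while the Setd5sh libraries held 16.8, 27.0 and 12.2 FPKM. Setd5sh replicate 2 lay within the control range, and Setd5sh replicates 1 and 3 lay below it. On the log2 scale the difference was -0.59 (SE 0.27; unadjusted edgeR p of 0.0647), and was -0.91 without Setd5sh replicate 2 and -0.36 without Setd5sh replicate 3. P4ha2 was lower in level, with 4.24, 6.56 and 4.52 FPKM in control libraries next to 3.19, 5.43 and 3.01 FPKM in Setd5sh libraries, again with only Setd5sh replicate 2 inside the control range. Its log2 fold change was -0.40 (SE 0.27; unadjusted edgeR p of 0.174), -0.69 without Setd5sh replicate 2 and -0.21 without control replicate 2.

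The partner subunit of these enzymes and the collagens they act on were counted too. Of 15 tested genes of collagen and its processing, 10 were above 0, their median log2 fold change was 0.09, and 0 were at an unadjusted p under 0.05 in edgeR. Of all genes tested, 57.4% were below 0. P4hb, the beta subunit that P4ha1 and P4ha2 bind, was at 0.15 (SE 0.17) on the log2 scale. Serpinh1, the collagen chaperone HSP47, was at 0.33 (SE 0.17), and each Setd5sh library was above each control library, at 247, 247 and 271 FPKM against 153, 221 and 232 FPKM. Such non-overlap in the upward direction was found in 3.07% of all genes tested.

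Egln1 and Egln3 encode prolyl hydroxylases that mark the HIF alpha subunit for degradation and are themselves HIF targets. Egln1 had the smallest difference of the 10, with control values of 38.1, 53.7 and 44.6 FPKM beside Setd5sh values of 37.1, 49.8 and 31.5 FPKM. The groups overlapped widely. In pairs 1 and 2 Setd5sh stood at 97.3% and 92.7% of control, and in pair 3 at 70.6%. Its log2 fold change of -0.21 (SE 0.20; unadjusted edgeR p of 0.32) was -0.37 without Setd5sh replicate 2 and -0.07 without Setd5sh replicate 3.

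Egln3 had 4.65, 7.47 and 6.37 FPKM in the controls, against 3.55, 6.45 and 2.98 FPKM with Setd5sh. Setd5sh replicate 2 exceeded 2 of the 3 control libraries, and Setd5sh replicates 1 and 3 were below all of them. Egln3 had a log2 fold change of -0.51 (SE 0.32; unadjusted edgeR p of 0.146), which was -0.88 without Setd5sh replicate 2 and -0.31 without Setd5sh replicate 3. The third member of the family, Egln2, is not known to respond to low oxygen, and its log2 fold change was 0.13 (SE 0.18).

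Vegfa encodes the growth factor that draws blood vessels towards tissue short of oxygen, and of the 10 it had the lowest median correlation with the others over the 6 libraries. It read 36.0, 26.1 and 19.0 FPKM in the control libraries but 21.2, 24.0 and 22.2 FPKM in the Setd5sh libraries. The control libraries spread widely around the narrow range of the Setd5sh libraries, and in pair 3 Setd5sh was higher, at 117% of control. Vegfa had a log2 fold change of -0.28 (SE 0.24; unadjusted edgeR p of 0.27). Its sign rested on control replicate 1, without which it was 0.03. Other VEGF ligands and receptors showed no common direction, with 3 of 5 tested genes above 0 and 0 at an unadjusted p under 0.05 in edgeR. Over all genes tested, 57.4% were below 0. Vegfb stood at 0.08 (SE 0.18) and the co-receptor Nrp2 at 0.25 (SE 0.18) on the log2 scale. For Nrp2 each Setd5sh library was above each control library, as in 3.07% of all genes tested. Endothelial markers were nearly absent, with the 5 fixed genes summing to 0.16 to 0.59 FPKM per library.

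Ankrd37, a small ankyrin repeat protein gene that responds strongly to low oxygen in many cells, gave 3.47, 4.62 and 4.09 FPKM in controls versus 3.35, 3.31 and 2.48 FPKM in Setd5sh libraries. The groups did not overlap, but in pair 1 the values were close, with Setd5sh at 96.5% of control. Its log2 fold change was -0.41 (SE 0.25; unadjusted edgeR p of 0.141), and exact permutation of the FPKM values gave a two-sided p of 0.1. Ankrd37 shares 57 exonic bases with Ufsp2 on the opposite strand, which held 4284 reads over the 6 libraries against 812 for Ankrd37, and the sources do not say whether counting used strand.

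Ndrg1, a gene linked to differentiation and stress that is induced by low oxygen, had the largest difference and the lowest level. The controls gave 1.42, 2.71 and 1.47 FPKM, and the Setd5sh libraries gave 0.61, 1.89 and 0.28 FPKM. In pair 3 Setd5sh was at 19.1% of control and in pair 2 at 69.7%. Setd5sh replicate 2 exceeded 2 of the 3 control libraries, so the groups overlapped. The log2 fold change of -1.01 had an SE of 0.62 (unadjusted edgeR p of 0.141), and it was -2.03 without Setd5sh replicate 2 and -0.59 without Setd5sh replicate 3. With the replicate number as a block, it was -1.33 (SE 0.38; unadjusted edgeR p of 0.0155). Of its relatives, Ndrg3 was at 0.02 (SE 0.14) and Ndrg4 at 0.25 (SE 0.24) on the log2 scale. Ndrg2, named so that all 3 tested relatives are shown, was at -0.14 (SE 0.29).

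**Figure D2:**
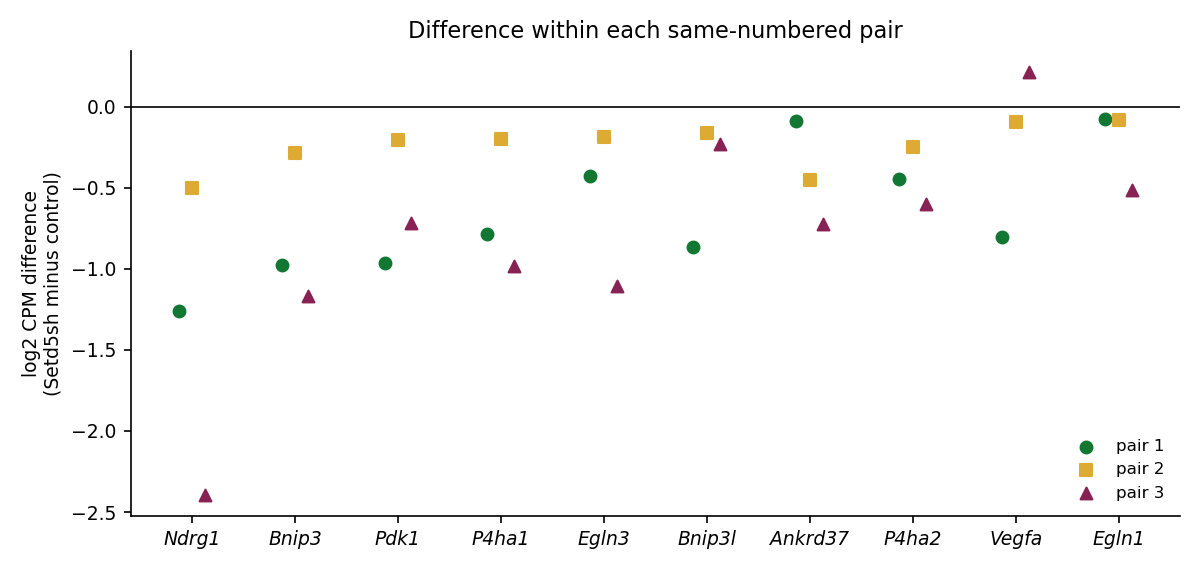
Difference in log2 CPM, Setd5sh minus control, within each of the 3 same-numbered pairs, for each gene. All 30 points except Vegfa in pair 3 lie below 0, and pair 2 lies closest to 0 for 8 of the 10 genes.

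The size of the difference varied between the same-numbered pairs. The labels do not state a pairing, and pairs 1 and 3 are uncertain, so the paired values here rest on an assumed pairing. Over the 10 genes the median log2 difference was -0.80 in pair 1, -0.20 in pair 2 and -0.72 in pair 3, whereas over all genes tested it was -0.02, -0.001 and -0.01. Ndrg1 had the most negative difference of the 10 in each of the 3 pairs. In pair 2 all 10 genes were still below 0, from -0.50 for Ndrg1 to -0.08 for Egln1. A paired fit without pair 1 gave adjusted edgeR p of 0.00144 for Bnip3, 0.0372 for P4ha1 and 0.000923 for Ndrg1, with log2 fold changes of -0.72, -0.58 and -1.27, and 0.328% of all genes were called lower in it. In that fit 8 of the 10 had an unadjusted p under 0.05, against 3.37% of all genes. It holds 4 libraries and 1 residual degree of freedom. The paired fits without pair 2 (0.0% of all genes called lower) and without pair 3 (3.48%) called none of the 10.

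By library, the 10 genes moved largely together. Relative to the control mean, their mean log2 level was 0.005, 0.16 and -0.16 for the controls, and -0.67, -0.08 and -0.99 for the Setd5sh libraries. Control replicate 2 was the highest of the 6 libraries for 7 genes, and Setd5sh replicate 3 was the lowest for 8. Pearson's r between members, on log2(FPKM + 1) over the 6 libraries, had a median of 0.82 over 45 pairs of genes, and was above 0.5 in 35. With each group's mean removed the median was 0.73, so members also varied together within groups. Vegfa had the lowest median r with the others, 0.31, and correlated best with Bnip3l, at 0.84. These correlations rest on 6 libraries that share depth and composition, and are descriptions.

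Several other quantities of the libraries moved in part with this pattern. The 3 libraries with the lowest mean level of the 10 genes, control replicate 3 and Setd5sh replicates 1 and 3, were also the 3 shallowest, with totals of 19639303 to 20726820 counts against 27153918 to 32046466 in the others. Mitochondrial transcripts took 2.18% of counts in control replicate 1, 1.41% in Setd5sh replicate 3 and 0.718% to 0.946% in the other libraries. Summed FPKM of 5 pluripotent stem cell markers was 18.4, 81.9 and 27.1 for controls, and 27.3, 61.3 and 8.76 for Setd5sh, highest in the libraries numbered 2. Nanog and Esrrb stayed under 1 FPKM on average, and Dppa5a made up most of the sum. Summed FPKM of 5 pan-neuronal markers ran the other way, from 21.6 to 30.1 in control and from 35.8 to 62.5 in Setd5sh, of which Tubb3 made up most, while Dcx and Stmn2 stayed under 1 FPKM. Mnx1, a motor neuron gene singled out after its values were seen, stood at 10.7, 22.8 and 11.3 FPKM for controls, and at 7.16, 17.1 and 5.05 FPKM for Setd5sh. It made up most of 5 postmitotic motor neuron markers, of which Chat was near 0. The others, all low in level, had higher means in Setd5sh: Isl1 at 148.3%, Slc18a3 at 187.2%, Lhx3 at 105.6% and Chat at 137.5% of control. The summed level of 7 mesoderm and endoderm markers was 24.1 to 37.2 FPKM for controls and 34.5 to 38.8 FPKM for Setd5sh, mostly Foxa2, with T and Mesp1 near 0. The next in level, Gata6 and Sox17, averaged 1.42 and 1.01 FPKM over the 6 libraries. The sum is thus a reading of Foxa2 and does not show cells of these layers. The part of depth, mitochondrial share and cell composition in the difference was not tested. In these bulk libraries, fewer cells with an active response and less RNA per cell cannot be told apart. Markers of the labelled cell type were present in every library, with 6 motor neuron progenitor genes summing to 233 to 255 FPKM in control and 264 to 327 FPKM in Setd5sh. Markers of the fibroblast feeders on which the stem cells had been grown summed to 6.64 to 11.4 FPKM over 8 genes, with Postn, Thy1 and Lum near 0. Setd5 itself read 22.2, 18.8 and 16.7 FPKM for controls, and 14.4, 13.5 and 12.9 FPKM for Setd5sh, without overlap. This is -0.51 (SE 0.16) in log2, with an unadjusted edgeR p of 0.0143 and an adjusted edgeR p of 0.995. Non-overlap in this direction was found in 2.14% of all genes tested.

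Estimates of some genes shifted when trends on base composition and length were removed together, and their separate parts were not tested. Bnip3 and Bnip3l have the most AT-rich transcripts of the 10, with a GC content of 41.6% and 41.9% in the longest transcript, against a median of 50% over all genes tested. With each library's trend on GC content and length removed, the log2 fold change of Bnip3 went from -0.73 to -0.52 and that of Bnip3l from -0.44 to -0.20. Over the same correction Egln1, at 56.0% GC, went from -0.21 to -0.31, and Vegfa, at 50.9% GC, from -0.28 to -0.35. With the correction alone, 1 of the 10, Pdk1, had an unadjusted edgeR p under 0.05, against 0.68% of all genes. The median of the 10 genes was -0.47 with the correction and -0.50 with the correction and the replicate block. In that last fit 7 of the 10 had an unadjusted p under 0.05 and were lower, against 4.05% of all genes, and none passed after adjustment.

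**Figure D3:**
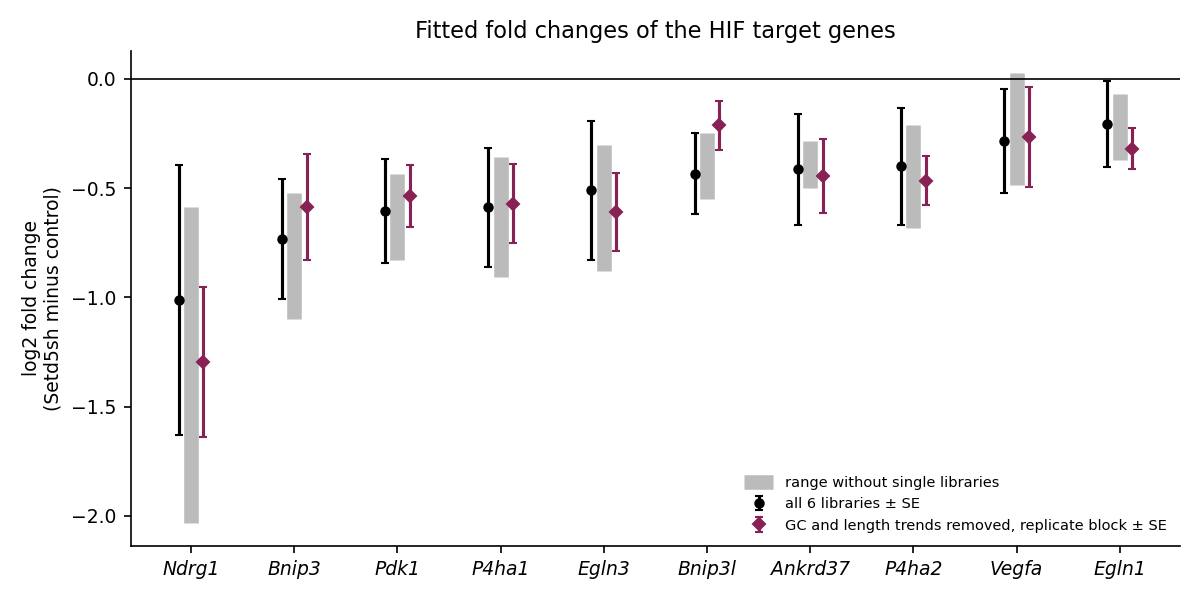
Log2 fold change, Setd5sh minus control, of each gene from all 6 libraries (black, ± SE), its range when single libraries are left out (grey) and its paired value after removal of the GC and length trends (purple, ± SE). The grey range crosses 0 only for Vegfa, and it is widest for Ndrg1, from -2.03 to -0.59.

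Genes of the oxygen-sensing pathway itself showed no common direction. Of 19 tested genes, 7 were below 0 and 12 above, their median log2 fold change was 0.06, and 0 had an unadjusted p under 0.05 in edgeR. Of all genes tested, 57.4% were below 0. Hif1a, the oxygen-regulated subunit, was measured at 27.6, 18.9 and 15.9 FPKM (controls) and 16.5, 17.3 and 20.5 FPKM (Setd5sh), a log2 fold change of -0.22 (SE 0.23). Hif1a is controlled mainly through protein stability, which these data do not measure. For Arnt, its partner, the value was -0.16 (SE 0.14), and for Vhl, which targets the hydroxylated subunit for degradation, it was 0.07 (SE 0.16). Epas1, the alternative alpha subunit, did not reach the expression minimum, with means of 0.613 FPKM (controls) and 0.38 FPKM (Setd5sh). Hif3a, a further alpha subunit gene singled out after its values were seen, averaged 2.86 FPKM (controls) and 1.89 FPKM (Setd5sh). Its log2 fold change was -0.60 (SE 0.35), and it was lower in all 3 pairs, as were 12.1% of all genes tested. Hsp90aa1, a chaperone of the HIF alpha subunit, stood at 463 FPKM in control replicate 1 and between 151 and 233 FPKM in the other 5 libraries, and its relative Hsp90ab1 was at 0.14 (SE 0.18) on the log2 scale.

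A further 38 genes described as HIF targets in other cells were listed beside the 10, and 32 passed the minimum. This list too was chosen with earlier results of these data known, so its counts are descriptions. Of these, 25 were below 0 and 7 above, the median being -0.30 on the log2 scale, and 13 were lower in all 3 pairs. Over all genes tested, 57.4% were below 0 and 12.1% were lower in all 3 pairs. An unadjusted p under 0.05 in edgeR was found for 2 of the 32, both lower, against 0.607% of all genes tested, and none passed after adjustment. Gbe1, the glycogen branching enzyme, was at 3.08, 2.92 and 2.79 FPKM for controls, and 1.52, 2.40 and 1.65 FPKM for Setd5sh, with no overlap and a log2 fold change of -0.67 (SE 0.23). Non-overlap in this direction was found in 2 of the 32 and in 2.14% of all genes tested. Plod2, a collagen lysyl hydroxylase, was at 14.9, 12.3 and 7.96 FPKM for controls, and 6.32, 9.47 and 5.71 FPKM for Setd5sh, a log2 fold change of -0.73 (SE 0.28). Of 22 genes of glucose uptake and glycolysis, 20 were below 0, with a median of -0.21 and 0 at an unadjusted p under 0.05 in edgeR. The most abundant were Pkm, at -0.09 (SE 0.21), and Eno1, at -0.005 (SE 0.23). Without Setd5sh replicate 3 the glycolysis median was -0.06, and in the paired fit without pair 3 it was 0.05, with 10 of the 22 below 0. Leaving out control replicate 1 moved the median of the 32 further targets to -0.20, leaving out control replicate 2 moved it to -0.19, and the paired fit without pair 1 gave -0.19.

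**Figure D4:**
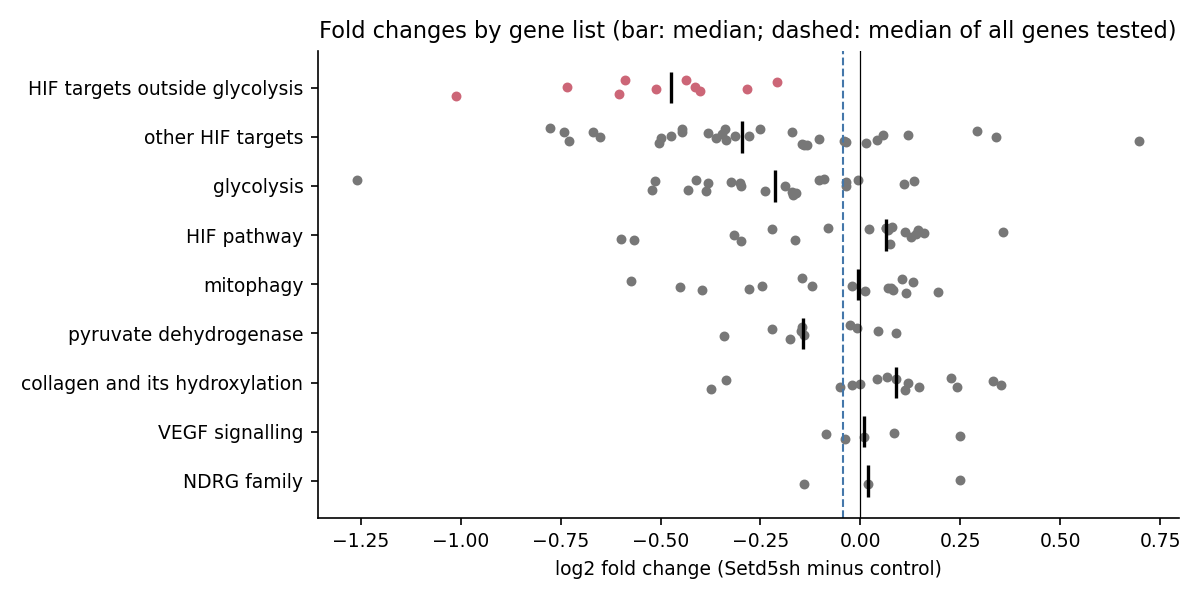
Log2 fold change, Setd5sh minus control, of every tested gene in each list (points, spread vertically for legibility), with the list's median as a black bar and the median of all genes tested as a dashed line. The 10 HIF targets (red) all lie below 0, with a median of -0.47, while the HIF pathway, mitophagy and VEGF lists are spread on both sides.

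Outside the list, the 6 genes whose log2(FPKM + 1) followed the mean of the 10 most closely over the 6 libraries were Slc8a3, 4833417C18Rik, Mettl27, Tcea2, Vamp2 and Ybx2, with Pearson's r of 0.996, 0.990, 0.990, 0.989, 0.989 and 0.987. Among all 12199 genes ranked in this way P4ha1 came at rank 3, Bnip3 at 7 and Ndrg1 at 15, although these contribute to the mean themselves, whereas Vegfa came at 3057. The 6 genes were chosen for following a mean that is lower in Setd5sh. Their high r and their direction were therefore set by that choice and are descriptions only. Vamp2, a synaptic vesicle protein gene, was at -0.30 (SE 0.16) on the log2 scale. Ybx2 was at 5.94, 7.66 and 4.08 FPKM for controls, and 2.23, 6.12 and 1.73 FPKM for Setd5sh, a log2 fold change of -0.82 (SE 0.48).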

How the data were processed

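The authors deposited 1 table of 55400 genes with a raw read count, an FPKM value and an exonic length. The deposited FPKM values equal the deposited counts scaled by length and column total to within 0.005. Per the submitters' processing notes the tools were DESeq2, HISAT2, HTSeq and SAMtools and the build was mm10, without roles or versions. Annotation and strand setting are not stated. Libraries held 19639303 to 32046466 counts. Gene symbols, coordinates and GC were taken from GENCODE M21 (99.5% of identifiers found), and promoters from RefSeq GRCm38.p6.

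Genes with a mean of at least 1 FPKM over the 6 libraries (12199) were tested with edgeR's quasi-likelihood test, run on raw counts as deposited, with TMM scaling, two-sided, Benjamini-Hochberg adjusted, threshold 0.05, without a block. Standard errors were derived from the edgeR F statistic. Per-pair differences are in log2 CPM after TMM. The scripts were tested on simulated data. Versions were DESeq2 1.42.0, edgeR 4.0.16, limma 3.58.1, R 4.3.3 and matplotlib 3.10.9. Near-identical copies were searched with BLAST in GENCODE transcripts. Libraries with the same replicate number were taken as pairs by plan. Deviations from the group means correlated at 0.183, 0.663 and 0.139 for libraries numbered 1, 2 and 3. Setd5sh replicate 3 correlated at 0.166 with control replicate 1, more than with its own number. The labels do not state a pairing, and in these correlations only the libraries numbered 2 stood apart, so pairs 1 and 3 are uncertain.

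The members and gene lists were chosen with earlier results of these data known. Named genes are the 10 members, Setd5, Hif1a, Epas1, Arnt, Vhl and Egln2, from each list up to 4 genes with an unadjusted p under 0.05 or, where none, the 2 most abundant, and the 6 genes most like the members. Alternatives covered scaling, tool, filter, pseudocount, pairing, GC and length, and leaving out libraries and pairs. DESeq2 with the replicate block, the count of members at an unadjusted p under 0.05 and the medians of the other lists were added after the data were seen.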

Additional observations from a re-analysis of the deposited data

How the results depend on the processing

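The median log2 fold change of the 10 genes stayed between -0.62 and -0.41 under the other scalings, filters, tools and pairings, and between -0.76 (without Setd5sh replicate 2) and -0.33 (without Setd5sh replicate 3) when single libraries were left out. The number of the 10 below 0 was 10 throughout, except 9 without control replicate 1 or without pair 1, and 7 of 7 with a minimum of 5 FPKM. The number with an unadjusted p under 0.05 and lower was 5 with the replicate block, 7 with GC and length offsets and the replicate block, 1 with the offsets alone, 8 in the paired fit without pair 1, and 0 to 6 without single libraries. With RLE or upper quartile scaling, DESeq2, limma or edgeR's own filter it was 2. It was 3 with total counts or a minimum of 5 FPKM, and 4 with no filter. DESeq2 with the replicate block and the paired fits without pair 2 or without pair 3 each gave 4. Vegfa ranged from -0.49 without control replicate 3 and turned to 0.025 without control replicate 1 and to 0.063 without pair 1. The number of genes called among all tested was 73 with no filter, 70 in the paired fit without pair 1, 436 in the one without pair 3 and 2 in DESeq2 with the replicate block, and 0 under the other alternatives. The fits without a pair leave 1 residual degree of freedom, and the cause of these counts was not tested. Depth limits the least abundant members, with 36 reads for Ndrg1 in Setd5sh replicate 3.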

Other observations

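Some genes of the further HIF target list stood above 0, and were chosen for mention after their values were seen. Stc2, a secreted glycoprotein gene, averaged 3.66 FPKM for controls and 6.01 FPKM for Setd5sh, a log2 fold change of 0.70 (SE 0.41), and was higher in all 3 pairs. Hmox1, the haem oxygenase, was at 0.34 (SE 0.21) and Dpysl4 at 0.29 (SE 0.19) on the log2 scale, both higher in all 3 pairs, against 12.8% of all genes tested. None had an unadjusted edgeR p under 0.05. Epo, the erythropoietin gene, averaged 1.97 FPKM for controls and 1.80 FPKM for Setd5sh.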
